A study of Mus musculus with 12 samples.

Results

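Primary mouse motoneuron cultures that lacked Smn1 were compared, gene by gene, with cultures that kept it while both received R-Roscovitine. The 6 libraries of this comparison, out of 12 in the series, were chosen by their genotype and treatment labels: 3 had the genotype Smn-/-;SMN2 and are named SMA after spinal muscular atrophy, and 3 had Smn+/+;SMN2 and are named control. All came from the FVB strain, all carried the human SMN2 transgene, and all were treated at 0.5 µM. The control group is therefore also an SMN2 transgenic group and not a plain wild type. The other 6 libraries are the same genotypes without treatment, again 3 of each, and serve as a reference.

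The product of Smn1, the survival motor neuron protein, works with the Gemin proteins to load Sm rings onto small nuclear RNAs and is lacking in spinal muscular atrophy. Human SMN2 is a near copy of the gene that yields little full-length protein because one exon is mostly skipped. R-Roscovitine inhibits cyclin-dependent kinases and slows the closing of presynaptic Cav2 calcium channels, so the comparison asks which genotype differences are seen when both genotypes are exposed to the compound.

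The values are FPKM, reads per kilobase of transcript and per M mapped reads. The 6 treated libraries held 19.5 to 27.4 M reads as read from the step between their lowest values, 19.5 to 23.5 M in SMA and 23.3 to 27.4 M in control libraries. In a principal component analysis of these 6 libraries, the first component took 42.7% of the variance. It placed control libraries 1, 2 and 3 at -30.8, -13.5 and -8.62 and SMA libraries 1, 2 and 3 at 20.1, -0.586 and 33.4. SMA library 2 thus lay nearer to the control libraries than the other SMA libraries did, and control library 1 lay farthest out on the other side. The labels do not say that libraries of 1 genotype came from separate cultures, so p-values measure the spread between these libraries, which may be technical.

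The label of motoneurons was checked against marker genes. Chat, Slc5a7, Mnx1, Isl1, Isl2, Lhx3 and Lhx4, which define motoneurons, did not reach 1 FPKM in any library of the series, and Mnx1 was listed at 0 throughout. Of 26 motoneuron markers in the files, 16 passed the filter for testing (at least 1 FPKM in at least 3 of the 12 libraries), among them Chodl, Nefh, Slit2 and Rbfox3. Of these 16, 1 lay above and 1 below in all SMA libraries, with a median log2 difference of -0.11 (-0.05 without control library 1). Of 36 interneuron markers in the files, 24 passed the filter and 12 did not. Of the 24, 1 lay above and 3 below, with a median of -0.07 (0.07 without control library 1). Gad1, an enzyme of GABA synthesis and 1 of these markers, was at 54.5 to 131 FPKM in the treated libraries. The cultures are called by their label here, but several genes that define motoneurons were near 0.

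Smn1 (ENSMUSG00000021645, GRCm38 chromosome 13, 100124852 to 100137690) was the targeted gene and separated the genotypes. It read 6.82, 5.04 and 7.35 FPKM in SMA libraries and 45.1, 38.2 and 39.2 FPKM in control libraries. Every SMA library was far below every control library, and their mean stood at 15.7% of that in controls, against 17.7% in untreated cultures. Smn1 fell by 2.49 ± 0.19 (SE) on the log2(scaled FPKM + 1) scale (limma, adjusted p = 9.13e-05, and 1.32e-05 to 0.00725 over the alternative settings). An exact two-sided permutation test of the 6 values gave p = 0.1, which is the lowest value possible with 3 libraries in each group. Reads of the SMN2 transgene that aligned to Smn1 cannot be told apart from mouse reads in these values.

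Smn1 was the 1 gene called lower among 14982 tested (0.00667%), and no gene was called higher (0%). With limma's p left unadjusted, 1205 genes were higher (8.04%) and 736 lower (4.91%) in SMA at the 0.05 level, 1941 in all (13%). In 1431 genes all 3 SMA libraries lay above all 3 control libraries (9.55%), and in 1197 all 3 lay below (7.99%). Without regard to overlap, 47% of genes had a positive and 53% a negative log2 difference. These percentages are the background against which the counts of the gene groups below are read. Without SMA library 2, limma called 186 genes higher (1.25% of 14932) and 42 lower (0.281%), and 18.5% and 17.3% of the 14982 genes did not overlap in the respective directions. Without control library 1, 13.5% lay above and 11.7% below, and Smn1 was again the 1 gene called. Counts below that leave out 1 of these libraries are read against the shares without that library.

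**Figure D1:**
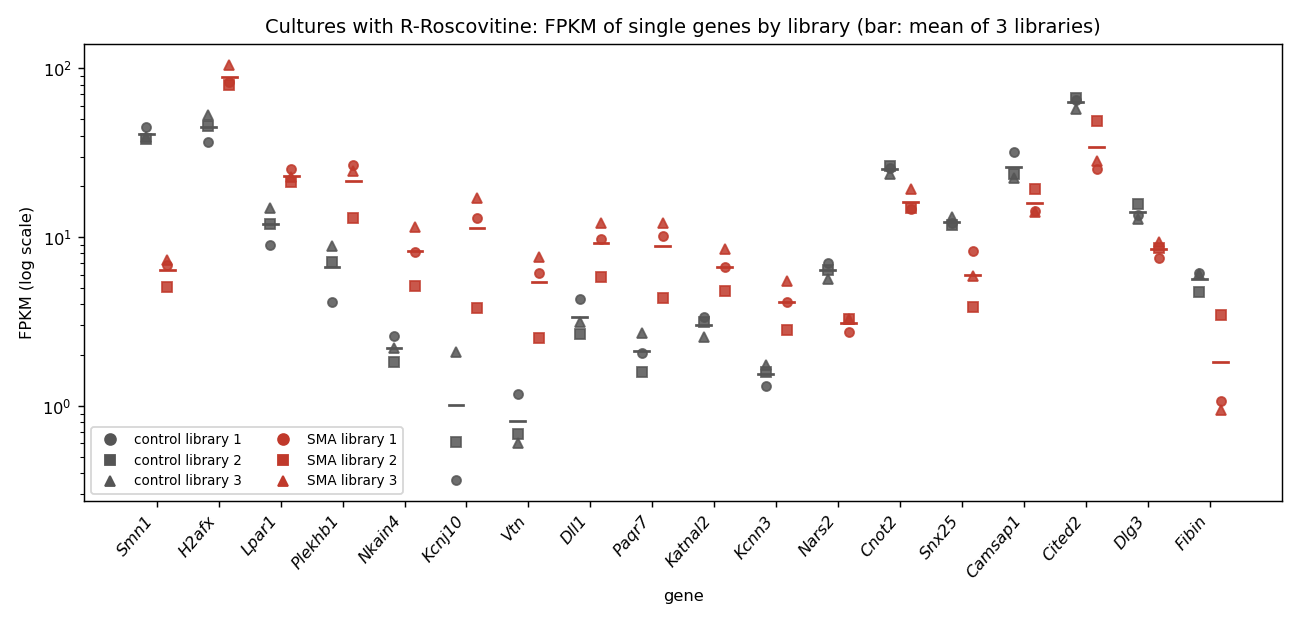
FPKM (log axis) of 18 genes in the 6 libraries with R-Roscovitine, control in grey and SMA in red, with the symbol giving the library number and the bar the mean of 3. The genotypes do not overlap in any of the 18 genes, and in Kcnj10, Vtn, Paqr7 and Fibin SMA library 2 is the SMA library nearest to the controls.

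Several partners of the survival motor neuron protein lay below control, by small differences beside that of Smn1. All 9 genes of the SMN complex were tested. Of these, 5 (55.6%) lay below control in every SMA library, Smn1 among them, while 1 (11.1%) lay above. The background was 7.99% below and 9.55% above. Gemin5, the subunit that recognises small nuclear RNAs, had 4.72, 5.65 and 5.19 FPKM in SMA and 7.34, 5.77 and 7.41 FPKM in control libraries. The groups did not overlap, but SMA library 2 and control library 2 were almost level (log2 difference -0.32 ± 0.15 SE; limma, adjusted p = 0.382). Strap, Gemin2 and Ddx20 were also below, with log2 differences of -0.28, -0.23 and -0.22. Gemin8 was the member above, at 11.03, 9.93 and 11.05 against 6.63, 9.20 and 8.15 FPKM (limma, adjusted p = 0.265). The median log2 difference of the 9 genes was -0.22, against -0.02 for all tested genes, and it was 0.01 in untreated cultures. The difference between the treated and untreated medians was not tested.

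The proteins that the complex assembles, and the splicing machinery beyond them, were close to background. Of 35 Sm, Lsm and other snRNP proteins, 4 lay above and 3 below, with a median of 0.03. Zmat5, a protein of the minor spliceosome, had 14.5, 14.1 and 14.4 FPKM in SMA and 8.92, 9.46 and 8.78 FPKM in control libraries. Its libraries agreed closely within each genotype, and the log2 difference was 0.62 ± 0.16 (SE; limma, adjusted p = 0.193). Snrpn, a neuronal Sm protein, had 77.3, 81.6 and 67.4 against 143, 104 and 90.2 FPKM (limma, adjusted p = 0.226). Snrpd3, a core Sm protein, had 131, 148 and 155 against 190, 169 and 187 FPKM (limma, adjusted p = 0.263). Neither gene overlapped between the genotypes. Of 43 SR and hnRNP splicing regulators, 3 lay above and 4 below, with a median of 0.02.

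Among the genes with the lowest p, those higher in SMA included a potassium channel of glia, a Notch ligand and a histone variant. Kcnj10, the inward rectifier Kir4.1 of astroglia, had 12.9, 3.82 and 17.1 FPKM in SMA and 0.364, 0.607 and 2.08 FPKM in control libraries. SMA library 2 was well below the other SMA libraries but still above all controls (log2 difference 2.51 ± 0.46 SE; limma, adjusted p = 0.152, and 0.00276 to 0.654 over the alternatives). In whole cultures, more cells of a type and more RNA per cell cannot be told apart. Nkain4, a protein that interacts with the sodium pump, had 8.16, 5.12 and 11.4 against 2.59, 1.81 and 2.19 FPKM (log2 difference 1.49 ± 0.26 SE; limma, adjusted p = 0.152). Lpar1, a receptor for lysophosphatidic acid, had 25.2, 21.1 and 22.7 against 8.96, 11.9 and 14.9 FPKM. SMA library 2 did not stand apart in Lpar1 (log2 difference 0.93 ± 0.17 SE; limma, adjusted p = 0.152). Rps19-ps5, a processed pseudogene of the ribosomal protein gene Rps19, came nearest to the threshold, at 17.3, 9.10 and 11.8 against 3.32, 3.82 and 4.19 FPKM (limma, adjusted p = 0.0668). Reads of a pseudogene and of its parent can be assigned to either, so its level is uncertain.

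Others of the 12 higher genes with the lowest p showed a similar order of the libraries. Vtn, the matrix protein vitronectin, had 6.13, 2.52 and 7.59 against 1.17, 0.678 and 0.603 FPKM. Plekhb1, a membrane protein with a pleckstrin homology domain, had 26.7, 12.9 and 24.6 against 4.13, 7.08 and 8.85 FPKM. In both genes SMA library 2 was the lowest SMA library and still above the controls. Paqr7, a membrane progestin receptor, had 10.1, 4.37 and 12.1 against 2.06, 1.59 and 2.70 FPKM. Rdh5, a retinol dehydrogenase, had 4.12, 3.78 and 6.62 against 0.607, 1.54 and 2.27 FPKM, and Katnal2, a relative of the microtubule-severing enzyme katanin, 6.69, 4.81 and 8.52 against 3.38, 3.14 and 2.55 FPKM. The adjusted p was 0.152 (limma) for each of these 5 genes, and the genotypes did not overlap in any of them. Olig1, a transcription factor of the oligodendrocyte lineage, had 59.8, 9.15 and 37.3 against 2.40, 5.36 and 5.01 FPKM (log2 difference 2.52 ± 0.57 SE; limma, adjusted p = 0.167). Among genes without overlap and with a mean of at least 5 FPKM, Olig1 and Kcnj10 had the largest log2 differences, level within their errors, while the ratio of mean FPKM was larger in Kcnj10, at 11.1 against 8.31. Fgfbp3, which carries fibroblast growth factors, and Igsf11, an adhesion molecule, were also among the 8 genes with the largest differences, at 2.15 and 1.87.

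The genes lower in SMA with the lowest p included a mitochondrial tRNA synthetase, a subunit of an mRNA deadenylase complex and a sorting nexin. Nars2, the mitochondrial asparaginyl-tRNA synthetase, had 2.75, 3.28 and 3.27 FPKM in SMA and 7.02, 6.39 and 5.65 FPKM in control libraries. Cnot2, part of the CCR4-NOT complex that shortens mRNA tails, had 14.6, 14.9 and 19.3 against 25.8, 26.2 and 23.7 FPKM. Snx25, a sorting nexin of endosomes, had 8.22, 3.84 and 5.91 against 12.1, 11.8 and 13.1 FPKM. In these 3 genes no SMA library reached the lowest control library, and SMA library 2 did not stand apart toward the controls. The log2 differences were -0.83 ± 0.17, -0.60 ± 0.13 and -0.96 ± 0.21 (SE), each with an adjusted p of 0.152 by limma. Camsap1, which caps microtubule minus ends, had 14.3, 19.2 and 14.03 against 32.1, 23.7 and 22.5 FPKM (limma, adjusted p = 0.175). Dlg3, the synaptic scaffold SAP102, had 7.55, 8.65 and 9.38 against 13.5, 15.6 and 12.8 FPKM (limma, adjusted p = 0.178). Slc5a6, a transporter of biotin and pantothenate, and Trmt10a, a tRNA methyltransferase, had log2 differences of -0.63 and -0.69 without overlap of the genotypes.

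Other lower genes followed the order in which SMA library 2 resembled the controls. Fibin, a secreted protein first described in fin buds, had 1.07, 3.44 and 0.941 FPKM in SMA and 6.13, 4.74 and 6.01 FPKM in control libraries (log2 difference -1.33 ± 0.27 SE; limma, adjusted p = 0.152). Cited2, a transcriptional coregulator that binds CBP and p300, had 25.2, 48.8 and 28.2 against 65.3, 67.2 and 57.7 FPKM (log2 difference -0.92 ± 0.22 SE; limma, adjusted p = 0.178). Ptx3, a secreted pentraxin, had 6.57, 15.3 and 7.26 against 20.5, 16.6 and 20.1 FPKM. In each of these the genotypes did not overlap although SMA library 2 was close to the lowest control. Among the largest differences, Rgs4, a brake on G protein signalling, had 12.0, 11.9 and 8.45 against 25.1, 48.2 and 16.9 FPKM. Npy1r, a neuropeptide Y receptor, had 5.12, 6.76 and 1.99 against 13.7, 8.72 and 8.51 FPKM. Chodl, a marker of fast motoneurons, had 3.76, 6.13 and 3.53 against 8.10, 17.2 and 7.71 FPKM (log2 difference -1.06 ± 0.34 SE; limma, adjusted p = 0.239).

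**Figure D2:**
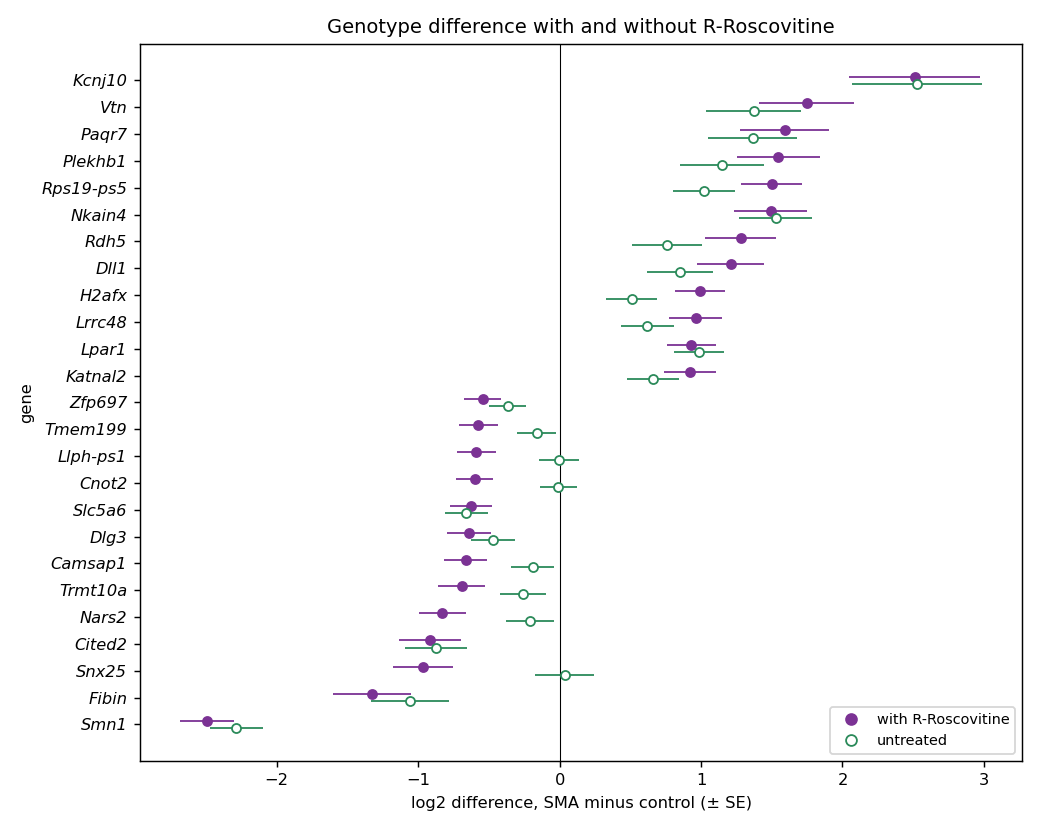
Log2 difference of SMA minus control (± SE) with R-Roscovitine (filled) and without treatment (open) for Smn1 and the 24 genes with the lowest p with the compound, 12 higher and 12 lower. Kcnj10 and Nkain4 have nearly the same difference in both, while Cnot2, Snx25 and Llph-ps1 have untreated differences near 0.

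The untreated cultures allow the genotype differences to be set against those without the compound. Of the 1431 genes without overlap above control in treated cultures, 446 (31.2%) also lay above without overlap in untreated cultures, where the background was 9.77%. Of the 1197 below, 341 (28.5%) also lay below, with an untreated background of 10.1%. Treated and untreated libraries of 1 genotype with the same number resembled each other, so these shares do not come from independent libraries. For gene lists, differences between treated and untreated medians or counts were not tested. Kcnj10 had log2 differences of 2.51 with and 2.53 without the compound, and Nkain4 had 1.49 and 1.53. Cnot2 differed by -0.60 with the compound and -0.01 without it, Snx25 by -0.96 and 0.04, and Nars2 by -0.83 and -0.21. By limma's interaction test, which asks whether the genotype difference itself differs between treated and untreated cultures, no gene passed (0 of 14982, 0%), and 286 (1.91%) had an unadjusted p under 0.05. That fit takes the 12 libraries as independent. With each pair of treated and untreated libraries of 1 genotype and number as a block, again no gene passed (0%), and 722 (4.82%) had an unadjusted p under 0.05, or 801 (5.35%) with the pairs as a random effect. The unadjusted interaction p with the block was 0.0034 for Cnot2, 0.0017 for Snx25 and 0.019 for Nars2, and the adjusted p was 0.813 for each (limma).

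Markers of neural progenitors and astroglia were the marker lists with the highest medians. Of 26 astroglia markers tested, 13 lay above control in every SMA library and none below, with a median log2 difference of 0.80. Without SMA library 2, 19 lay above and 1 below, against backgrounds of 18.5% and 17.3%. Their summed level was 789 to 1226 FPKM in SMA and 600 to 765 FPKM in control libraries, and S100b and Gjb6 stayed below 1 FPKM in every library. Apoe, the lipid carrier secreted by astrocytes, had 28.3, 15.9 and 51.7 against 10.4, 7.76 and 12.8 FPKM. Ndrg2, an astrocyte protein, had 24.0, 9.40 and 36.0 against 7.81, 4.57 and 8.51 FPKM. Both genes lay above control in all 3 SMA libraries, with library 2 lowest. In untreated cultures 16 of the 26 astroglia markers lay above and none below, with a median of 0.85.

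Of 26 progenitor markers, 16 lay above and 2 below in untreated cultures, with a median of 0.65. With the compound, 11 lay above and 1 below, with a median of 0.66 and a summed level of 993 to 1474 against 832 to 1017 FPKM. Ednrb, the endothelin receptor B of radial glia and neural crest, had 103, 46.6 and 140 against 21.7, 22.8 and 43.0 FPKM (log2 difference 1.64 ± 0.40 SE; limma, adjusted p = 0.178). Sox1, a transcription factor of neural progenitors, had 23.4, 16.4 and 28.4 against 10.2, 12.5 and 13.9 FPKM (limma, adjusted p = 0.178). Not every member went the same way. Zic2, a zinc finger factor of the dorsal neural tube, was the member below, at 20.2, 22.3 and 17.0 against 32.2, 34.9 and 26.3 FPKM (limma, adjusted p = 0.207). Ccnd1, which encodes cyclin D1, had 28.0, 107 and 32.8 against 84.6, 140 and 125 FPKM, and SMA library 2 lay above control library 1. Of 8 oligodendrocyte markers tested, 3 lay above and 1 below. The summed level of the list was 94.9, 26.2 and 65.1 FPKM in SMA and 17.0 to 22.6 FPKM in control libraries. Olig1 alone made up most of this sum in SMA libraries 1 and 3. Mag, Mobp and Pdgfra, which mark more mature stages or precursors of that lineage, stayed below 1 FPKM in every library. Fibroblast markers did not separate the genotypes (median -0.21, or -0.33 without control library 1, summed level 465 to 502 against 333 to 644 FPKM), and Col1a2, a collagen of fibroblasts, was highest in control library 2 at 21.9 FPKM against 1.32 to 4.47 FPKM in the other treated libraries.

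Signalling pathways of the developing spinal cord were examined by the roles of their genes. Notch signalling passes from ligands on one cell to receptors on its neighbour and holds progenitors back from differentiating. Dll1, a Notch ligand, had 9.79, 5.80 and 12.2 FPKM in SMA and 4.27, 2.67 and 3.15 FPKM in control libraries (log2 difference 1.21 ± 0.24 SE; limma, adjusted p = 0.152). Every SMA library exceeded every control library. Among the receptors, Notch1 had 47.2, 29.1 and 38.9 against 10.04, 26.1 and 22.5 FPKM and Notch3 4.56, 3.92 and 7.57 against 2.002, 2.67 and 3.35 FPKM. Nrarp, a target and feedback inhibitor of Notch, had 5.78, 4.06 and 9.30 against 1.86, 2.77 and 2.93 FPKM. Dll1, Notch1, Notch3 and Nrarp were the 4 of 27 pathway genes above control in every SMA library, and Dner, a neuronal transmembrane protein with EGF repeats, was the 1 below, at 82.5, 87.9 and 88.0 against 130, 110 and 94.6 FPKM. The median over the pathway was 0.14 (0.04 without control library 1). Without SMA library 2, 11 genes lay above and 2 below, against backgrounds of 18.5% and 17.3%.

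Sonic hedgehog is a secreted ligand that binds Patched and thereby releases Smoothened to activate Gli factors. The ligand Shh itself had 15.5, 19.4 and 15.7 against 14.3, 13.05 and 15.1 FPKM, a log2 difference of 0.25 ± 0.23 (SE; limma, adjusted p = 0.672). The receptor Ptch1, which is also a target of the pathway, had 30.9, 21.3 and 46.4 against 8.64, 14.1 and 14.95 FPKM (log2 difference 1.30 ± 0.29 SE; limma, adjusted p = 0.157). Gli1, another target, had 2.97, 1.89 and 4.67 against 0.836, 1.52 and 1.37 FPKM. Both targets were highest in SMA library 3 and lay above all controls. Hhip, a decoy receptor that is a target as well, was lower instead, at 5.47, 8.10 and 4.84 against 8.42, 9.38 and 10.1 FPKM (limma, adjusted p = 0.25). Of the 13 pathway genes tested, 4 lay above and 1 below, and without control library 1, 4 lay above and 3 below. The median log2 difference was 0.25, or 0.16 without control library 1. With every gene centred on its mean over all libraries, the list median was -0.42 in control library 1, and control library 2, at 0.10, lay above SMA libraries 1 and 2, at 0.05 and -0.0073. In untreated cultures the median log2 difference was -0.07, and its difference from the treated value was not tested.

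Wnt ligands act through Frizzled receptors. Of 34 genes of the Wnt pathway, 8 lay above and none below, with a median of 0.18 (0.10 without control library 1). The ligand Wnt7b had 9.92, 4.18 and 11.5 against 2.42, 2.74 and 3.45 FPKM (log2 difference 1.23 ± 0.31 SE; limma, adjusted p = 0.191). Wnt7a had 4.85, 3.30 and 10.03 against 1.07, 1.16 and 4.26 FPKM, so SMA library 2 overlapped with control library 3. Among the receptors, Fzd2, Fzd3, Fzd8 and Fzd10 lay above, with Fzd10 at 6.15, 5.30 and 9.46 against 3.37, 4.23 and 5.21 FPKM. Of 39 genes of the BMP and TGF-beta pathways, 5 lay above and 5 below, and the related homeobox genes Msx1 and Msx2 lay on opposite sides. Msx1 had 2.61, 2.08 and 2.78 against 0.829, 1.58 and 0.998 FPKM, and Msx2 had 1.22, 5.20 and 2.56 against 6.52, 9.68 and 7.31 FPKM. Neither overlapped between the genotypes (limma, adjusted p = 0.178 and 0.198). Of 26 FGF pathway genes, 3 lay above, among them the receptor Fgfr2, and 2 below, among them Fgf13, an intracellular member that binds sodium channels, at 53.2, 54.3 and 40.3 against 98.6, 71.5 and 63.5 FPKM. Of 18 IGF pathway genes, 4 lay above and 1 below. Igfbpl1, a protein related to the IGF binding proteins, had 140, 97.7 and 130 against 58.8, 90.2 and 82.5 FPKM (limma, adjusted p = 0.228).

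Guidance and matrix genes were mixed. Of 33 ephrins, Slit-Robo and netrin genes, 6 lay above and 2 below, with a median of 0.13. Efna5, a membrane-anchored ephrin that repels axons, was below, at 13.2, 18.0 and 13.3 FPKM in SMA and 24.4, 23.2 and 23.3 FPKM in control libraries (log2 difference -0.64 ± 0.17 SE; limma, adjusted p = 0.193). The control libraries were level with each other, and SMA library 2 came nearest to them. Of 35 collagens and other matrix genes, 4 lay above and none below, with a median of -0.08. Without control library 1, 5 lay above and 7 below, with a median of -0.24. Bcan, the brain proteoglycan brevican, had 4.04, 1.30 and 4.11 against 0.860, 0.282 and 0.958 FPKM (log2 difference 1.23 ± 0.31 SE; limma, adjusted p = 0.191). Within the BMP list, Bmp1, a protease that matures collagens and frees BMP ligands, had 10.6, 10.6 and 16.02 against 6.02, 8.21 and 6.89 FPKM, and Grem1, a secreted BMP antagonist, had 0.646, 1.36 and 0.383 against 2.77, 3.01 and 1.53 FPKM. Neither overlapped between the genotypes (limma, adjusted p = 0.191 and 0.197).

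Histone genes were the list with the largest share above control. Replication-dependent histone genes are made in S phase, and their mRNAs end in a conserved stem-loop in place of a poly(A) tail. Most replication-independent variants are made throughout the cycle with polyadenylated mRNAs. Of 64 replication-dependent genes listed, 46 passed the filter, and 26 of these lay above control in every SMA library and none below, against the background of 9.55%. All 46 had a positive log2 difference (47% of all tested genes did), with a median of 0.60, which was 0.54 to 0.60 over the scaling alternatives and 0.47 in untreated cultures. Without SMA library 2, 40 lay above (background 18.5%), and without control library 1, 29 (background 13.5%). Levels were low, the median member averaging 1.68 FPKM, and 1 FPKM was added before the log. The genes are near-identical copies, so reads can be assigned to any of several. None passed the threshold singly.

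The stem-loop is shown for the 5 replication-dependent genes and the variant H2afx that are described next, because it is the sequence feature that sets the first class apart. A search of GENCODE M21 transcripts (GRCm38) on the transcript strand for its letters (GG, any 2 bases, CTTTT, any base, AG, any 2 bases, CC) found it in 29 of 40 tested replication-dependent genes with a transcript (72.5%), in 1 of 11 replication-independent genes and in 25 of 14723 other tested genes (0.17%). The search took a match anywhere in the transcript. The match ended 29 bases before the annotated transcript end in Hist1h2bf and 23 in Hist1h2bj. It ended 330 bases before it in Hist1h4i, 822 in H2afx, 1153 in Hist1h1e and 1162 in Hist2h3c1. Whether the mRNAs in these cultures ended at the stem-loop was not tested. The capitals mark the 16 bases of the stem-loop within 26 bases of the transcript, and the lines read 5′ to 3′.
Hist1h1e (chr13:23621777-23621802, minus strand): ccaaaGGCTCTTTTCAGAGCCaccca
Hist1h2bf (chr13:23573760-23573785, minus strand): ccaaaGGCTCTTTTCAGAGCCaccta
Hist1h2bj (chr13:22043633-22043658, plus strand): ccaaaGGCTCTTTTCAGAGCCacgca
Hist1h4i (chr13:22040961-22040986, minus strand): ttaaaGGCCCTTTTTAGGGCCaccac
Hist2h3c1 (chr3:96247322-96247347, plus strand): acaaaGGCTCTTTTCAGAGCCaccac
H2afx (chr9:44335235-44335260, plus strand): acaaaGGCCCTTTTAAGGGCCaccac

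Hist1h1e, a linker histone, had 9.78, 6.03 and 9.56 FPKM in SMA and 3.93, 3.69 and 4.04 FPKM in control libraries (log2 difference 0.94 ± 0.19 SE; limma, adjusted p = 0.152). The control libraries agreed closely and no SMA library overlapped with them. The H2B gene Hist1h2bf had 1.43, 1.34 and 1.82 against 0.0633, 0.431 and 0.583 FPKM, and Hist1h2bj had 2.49, 1.02 and 1.92 against 0.337, 0.737 and 0.382 FPKM. The H4 gene Hist1h4i had 4.47, 1.71 and 5.49 against 0.338, 1.46 and 1.63 FPKM, with SMA library 2 just above control library 3. Hist2h3c1, an H3 gene on chromosome 3, had 3.13, 2.70 and 4.73 against 1.66, 2.56 and 1.30 FPKM. Hist1 genes share chromosome 13 with Smn1, while Hist2h3c1 does not. On that chromosome the stem-loop of Hist1h1e starts at 23621777 and Smn1 at 100124852. Whether chromosome position had a part in the histone difference was not tested. The median log2 difference was 0.57 in the 29 genes with the stem-loop and 0.68 in the 11 without a match in their transcripts. Whether these 11 have a stem-loop beyond the annotated transcript end, or with other letters, was not tested.

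Replication-independent histone genes, a list added after the data were seen, were expressed at higher levels, the median member averaging 67.3 FPKM. Of 11 genes, 5 lay above control in every SMA library and none below, with a median of 0.42. H2afx, the variant that is phosphorylated at DNA breaks and whose transcript holds the stem-loop, had 83.3, 79.7 and 105 FPKM in SMA and 36.7, 45.4 and 53.3 FPKM in control libraries (log2 difference 0.99 ± 0.18 SE; limma, adjusted p = 0.152). All SMA libraries were well above all controls, and SMA library 2 did not stand apart. H1f0, a linker histone of cells that leave the cycle, had 61.6, 48.7 and 72.1 against 32.4, 46.6 and 45.6 FPKM. H2afz, in contrast, had 224, 250 and 235 against 246, 229 and 298 FPKM, with overlapping genotypes. Cell cycle and DNA replication genes did not follow the histones: of 58, 5 lay above and 2 below, with a median of 0.07 (-0.03 without control library 1), and Cdk1 had 120, 103 and 136 against 93.1, 103 and 121 FPKM. The progenitor and astroglia sums given above moved with the histone levels, in that SMA library 2 was lowest of the SMA libraries in each, and their part in the histone difference was not tested. The labels name an mRNA-Seq library kit used on total RNA and do not describe how mRNA was selected. How that step treats histone mRNAs without a poly(A) tail was not tested.

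**Figure D3:**
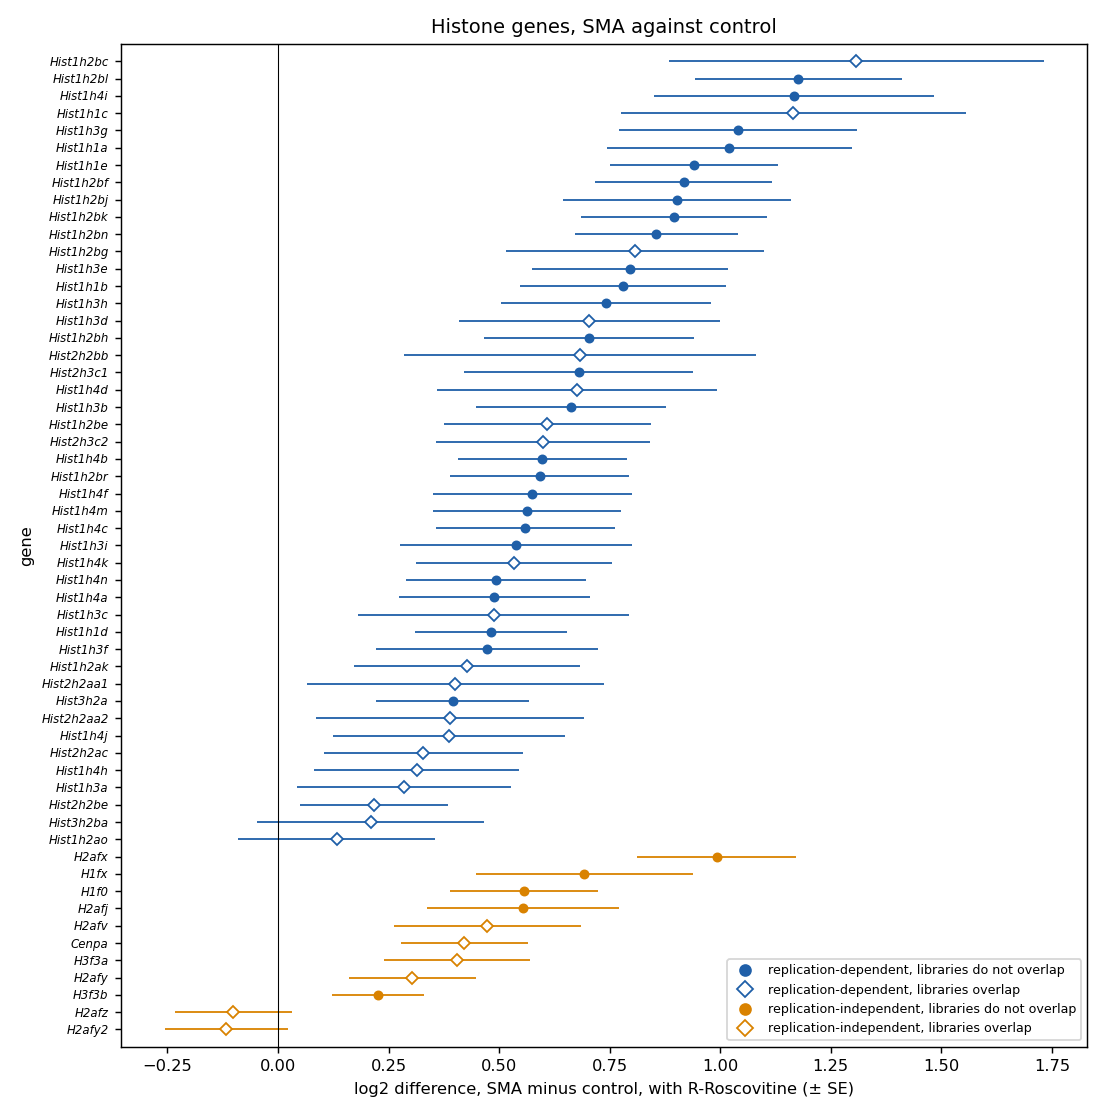
Log2 difference (± SE) of SMA minus control with R-Roscovitine for 46 replication-dependent and 11 replication-independent histone genes, with filled symbols where the 3 SMA and 3 control libraries do not overlap. All replication-dependent genes lie to the right of 0, and H2afz and H2afy2 are the 2 genes to the left.

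Genes of ribosomes and of oxidative phosphorylation had small positive medians. Of 79 cytosolic ribosomal protein genes, 32 lay above control in every SMA library and 3 below, with a median log2 difference of 0.16, or 0.08 to 0.16 over the scaling alternatives. In untreated cultures 9 lay above and 2 below, and the difference from the treated counts was not tested. Rps14, of the small subunit, had 395, 358 and 397 FPKM in SMA and 209, 254 and 272 FPKM in control libraries (log2 difference 0.67 ± 0.15 SE; limma, adjusted p = 0.152). The acidic stalk proteins had the same direction: Rplp0 had 992, 945 and 933 against 577, 739 and 811 FPKM, and Rplp2 had 598, 592 and 592 against 330, 443 and 490 FPKM. Control library 1 was lowest and SMA library 2 did not stand apart in these 3 genes. Without control library 1 the list median was 0.10, and 32 genes again lay above and 7 below. The background was then 13.5% above and 11.7% below, in place of 9.55% and 7.99%. Rps4x, an X-linked small subunit gene, was lower, at 222, 254 and 222 against 305, 313 and 319 FPKM (limma, adjusted p = 0.226). Ribosomal protein genes have many processed pseudogenes, so single levels can gain or lose reads to them.

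Of 74 nuclear genes of oxidative phosphorylation, 14 lay above and 2 below, with a median of 0.10 (0.03 untreated). Atp5g2, a subunit of the ATP synthase ring, had 120, 103 and 110 against 56.2, 75.4 and 79.1 FPKM (log2 difference 0.68 ± 0.17 SE; limma, adjusted p = 0.191). Atp5g3, which encodes the same subunit, had 706, 674 and 737 against 426, 584 and 522 FPKM. Atp5e, the epsilon subunit, had 621, 484 and 591 against 360, 422 and 436 FPKM. None of the 3 genes overlapped between the genotypes. Control library 1 was the lowest library in each of them. Without SMA library 2, 34 of the 74 genes lay above and 2 below, against backgrounds of 18.5% and 17.3%. Without control library 1, 17 lay above and 2 below, against backgrounds of 13.5% and 11.7%, with a median of 0.09. All 13 proteins encoded in mitochondrial DNA had a positive log2 difference (median 0.16), but none was free of overlap and the median turned to -0.03 with quantile normalization.

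Lists of neuronal genes had negative medians, and their members differed in how far. Of 49 presynaptic genes, 11 lay below control in every SMA library and none above, with a median log2 difference of -0.31. Without control library 1 the median was -0.17, and 11 again lay below and 1 above. The background below was then 11.7%, in place of 7.99%. Synapsin I, a protein that tethers vesicles and is encoded by Syn1, had 54.4, 68.8 and 41.2 FPKM in SMA and 95.4, 87.0 and 69.5 FPKM in control libraries (limma, adjusted p = 0.245). Sgip1, an adaptor of endocytosis, had 25.3, 32.1 and 18.5 against 41.2, 36.5 and 36.8 FPKM (limma, adjusted p = 0.221). Dnm1, the neuronal dynamin that cuts off endocytic vesicles, had 36.9, 46.5 and 33.9 against 77.7, 62.2 and 47.9 FPKM. SMA library 3 was the lowest and control library 1 the highest in each. In untreated cultures 23 of the 49 genes lay below.

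Neuropeptides and the enzymes that process them had negative log2 differences in 21 of 23 genes (53% of all tested genes did), with 6 below and none above, and a median of -0.33. Scg2, a granin of dense-core vesicles, had 50.6, 55.2 and 32.7 against 96.6, 84.8 and 65.7 FPKM (log2 difference -0.82 ± 0.22 SE; limma, adjusted p = 0.193). Pcsk1, a protease that matures prohormones, had 0.810, 1.37 and 0.404 against 2.89, 3.06 and 1.79 FPKM (limma, adjusted p = 0.178). Cpe, the carboxypeptidase that trims the products, had 177, 179 and 165 against 276, 232 and 203 FPKM. In these 3 genes the genotypes did not overlap. Without SMA library 2, 11 of the 23 lay below, against a background of 17.3%. In SMA library 3 the astroglia sum was the highest of the treated libraries, and the neuropeptide and presynaptic sums were the lowest. The progenitor sum did not keep this order. It was highest in SMA library 1, and control library 3 exceeded SMA library 2, at 1017 against 993 FPKM. The part of astroglia and progenitors in the neuronal lists was not tested.

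Of 31 GABA, glycine, acetylcholine and serotonin receptors and related genes, 6 lay below and none above (median -0.26). Without control library 1, 6 lay below and 2 above, with a median of -0.13. Htr2a, a serotonin receptor, had 2.26, 2.14 and 1.10 against 3.38, 4.08 and 3.82 FPKM (limma, adjusted p = 0.189). Of 20 glutamate receptors, 2 lay above and none below, and the median of -0.09 turned to 0.12 without control library 1. Of 20 calcium channel subunits, 1 lay above and 2 below (median -0.10, or -0.01 without control library 1). Cacna1b, the Cav2.2 pore on which R-Roscovitine is known to act, had 14.9, 16.7 and 8.11 against 15.3, 11.8 and 12.3 FPKM, with overlapping genotypes. Cacna1a, the Cav2.1 pore, had 16.5, 15.3 and 15.4 against 18.5, 19.5 and 17.4 FPKM, below without overlap but by a log2 difference of -0.20 ± 0.13 (SE; limma, adjusted p = 0.544). Of 41 sodium and potassium channels, 4 lay above and 4 below. Kcnn3, a calcium-activated SK channel, was higher at 4.13, 2.83 and 5.47 against 1.32, 1.58 and 1.75 FPKM (log2 difference 0.99 ± 0.20 SE; limma, adjusted p = 0.152), and Kcnn2, of the same family, at 4.41, 3.07 and 5.15 against 2.45, 2.19 and 1.98 FPKM. Of 44 axonal cytoskeleton genes, 1 lay above and 4 below (median -0.15), and 4 above and 5 below without control library 1 (median -0.10). Ina, an intermediate filament of axons, had 69.2, 72.9 and 55.5 against 119, 81.7 and 86.5 FPKM.

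Immediate early genes, which respond to activity and stress within minutes, had a median of -0.36, and 38 of 46 had a negative log2 difference, but 4 lay below without overlap and 1 above. Control library 2 was high in many of them: the list median, centred on the mean of all libraries, was 0.63 there and between -0.34 and -0.02 in the other treated libraries. Npas4, an activity-dependent factor of neurons, had 1.95, 2.55 and 1.73 FPKM in SMA and 12.9, 16.8 and 2.47 FPKM in control libraries. Fos had 17.8, 8.40 and 5.36 against 46.9, 87.5 and 11.6 FPKM. In both genes control library 3 lay within the range of the SMA libraries. Atf3, a stress-induced factor, had 2.06, 3.08 and 1.03 against 3.80, 4.08 and 3.78 FPKM without overlap (limma, adjusted p = 0.315). Nr4a3, an orphan nuclear receptor, was the member above, at 21.3, 17.5 and 21.1 against 8.17, 15.5 and 11.6 FPKM (limma, adjusted p = 0.224).

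**Figure D4:**
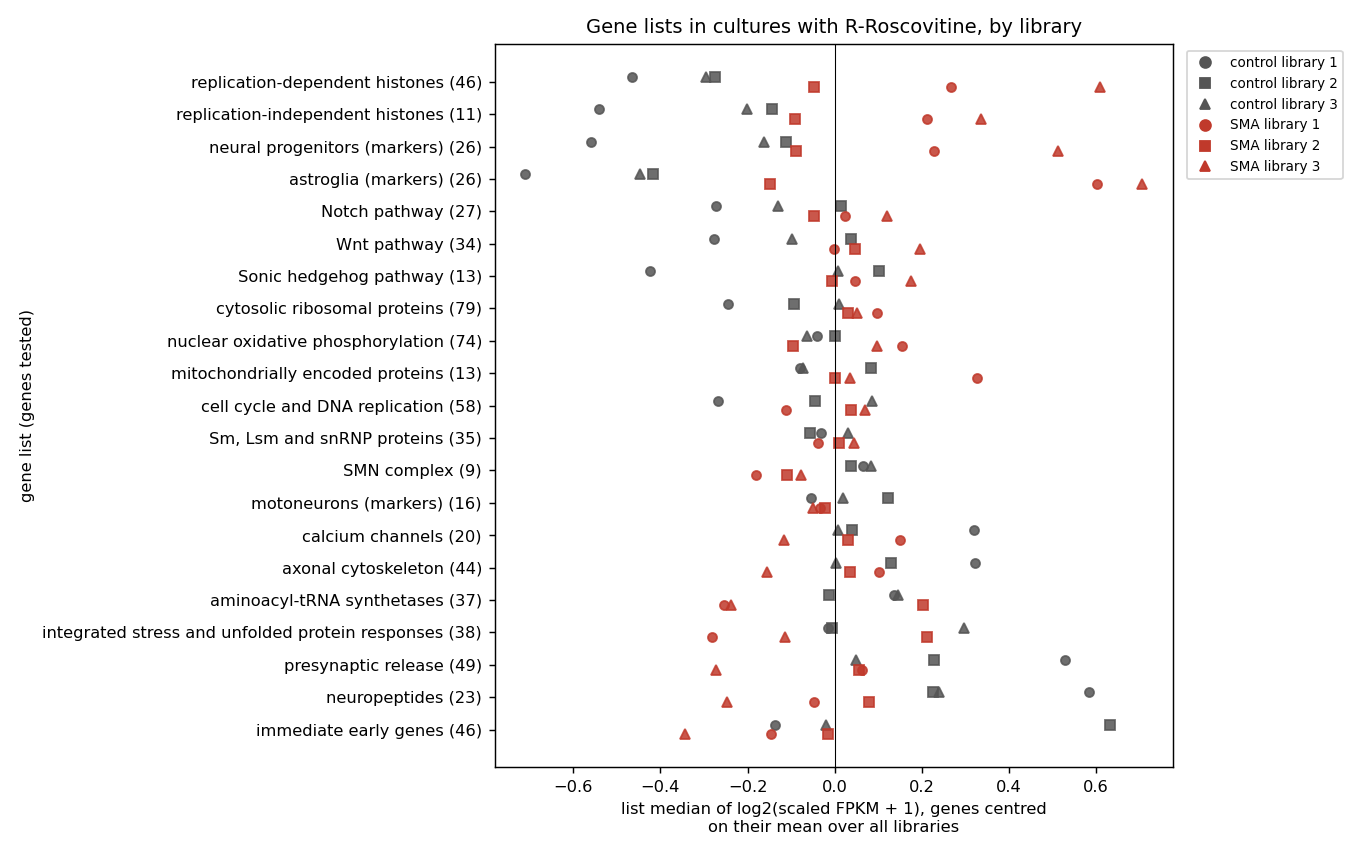
Median over each gene list of log2(scaled FPKM + 1), with every gene centred on its mean over all 12 libraries, in the 6 libraries with R-Roscovitine, control in grey and SMA in red, with the symbol giving the library number. Histones and astroglia markers are highest in SMA libraries 1 and 3, with SMA library 2 between these and the controls, while for aminoacyl-tRNA synthetases SMA library 2 is the highest library of all.

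Aminoacyl-tRNA synthetases, which charge tRNAs with amino acids, and stress response genes were ordered by library more than by genotype. Gars, the glycyl-tRNA synthetase, had 45.2, 100.03 and 48.5 FPKM in SMA and 118, 74.2 and 121 FPKM in control libraries. Asns, the asparagine synthetase and a target of the stress factor Atf4, had 100.02, 230.4 and 87.8 against 259, 126 and 270.4 FPKM. Eprs, which charges tRNAs with glutamate and proline, had 27.1, 52.7 and 26.5 against 58.8, 35.3 and 62.3 FPKM. In all 3 genes SMA library 2 lay above control library 2, while SMA libraries 1 and 3 lay below every control. Of 37 synthetases, 1 lay above and 4 below with all libraries (median -0.18). Without SMA library 2, 5 lay above and 19 below, against backgrounds of 18.5% and 17.3%. Of 38 integrated stress response and unfolded protein response genes, 2 lay below with all libraries and 19 without SMA library 2. Herpud1, a protein of the degradation machinery of the endoplasmic reticulum, had 20.97, 39.3 and 15.6 against 43.8, 38.1 and 50.9 FPKM. Not every synthetase shared this order. Lars2, the mitochondrial leucyl-tRNA synthetase, was the synthetase above control, at 239, 128 and 221 against 127, 89.1 and 121 FPKM (log2 difference 0.78 ± 0.24 SE; limma, adjusted p = 0.23). SMA library 2 and control library 1 were almost level in Lars2. Gm26924, a predicted gene whose reads are commonly taken as a sign of ribosomal RNA, held 4.31, 3.57 and 5.05% of the summed FPKM in SMA and 3.39, 2.62 and 2.94% in control libraries. It did not overlap between the genotypes either, SMA library 2 was the lowest SMA library in both, and its part in the Lars2 difference was not tested. Hars, the cytosolic histidyl-tRNA synthetase, lay below control in every SMA library, at 21.4, 20.5 and 22.8 against 32.3, 25.7 and 27.9 FPKM.

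**Figure D5:**
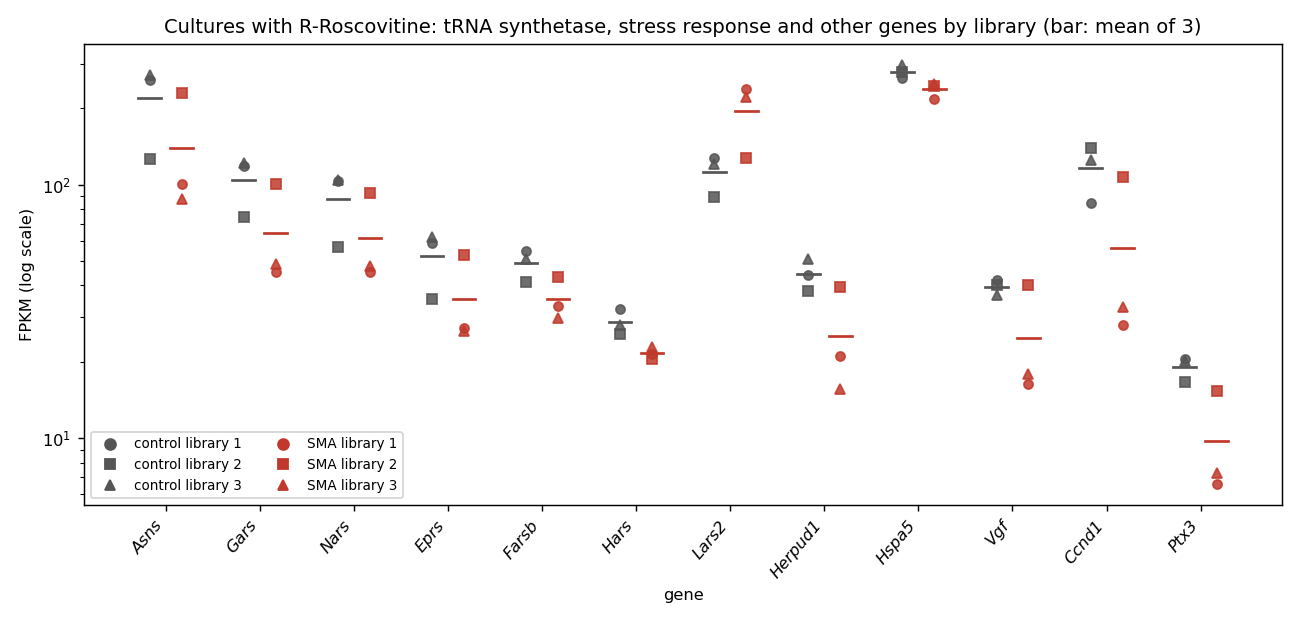
FPKM (log axis) of aminoacyl-tRNA synthetase, stress response and other genes in the 6 libraries with R-Roscovitine, control in grey and SMA in red, with the bar the mean of 3. In Asns, Gars, Nars and Eprs SMA library 2 lies above control library 2, while Hars and Lars2 separate the genotypes in opposite directions.

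Lists tied to the disease and to the compound were near background. Targets of p53, which responds to DNA damage and other stress, had a median of 0.01 over 24 genes, with 4 above and 2 below. Bax, which permeabilises mitochondria in apoptosis, had 63.7, 68.8 and 69.4 FPKM in SMA and 43.8, 57.8 and 51.7 FPKM in control libraries (log2 difference 0.41 ± 0.13 SE; limma, adjusted p = 0.226). Fas, a death receptor, had 22.3, 13.6 and 15.6 against 8.44, 12.1 and 11.4 FPKM, and Bbc3, which encodes PUMA, had 9.28, 9.56 and 10.7 against 5.00, 8.75 and 6.78 FPKM. Bax, Fas and Bbc3 lay above control in every SMA library. Pmaip1, another apoptotic target on this list, went the other way. It lay below control in every SMA library, with a log2 difference of -0.61 (limma, adjusted p = 0.459). Plk2, a polo-like kinase, also lay below, at 13.1, 23.3 and 12.2 against 27.9, 37.0 and 27.9 FPKM. Cdkn1a, the cell cycle inhibitor p21, overlapped at 109.5, 181 and 147 against 128, 181 and 169 FPKM. Of 24 kinases that R-Roscovitine inhibits and their partners, 2 lay above and 1 below, and none had an unadjusted p under 0.05 by limma. Cdk5, a neuronal target of the compound, had 15.02, 17.6 and 15.4 against 15.5, 15.03 and 14.5 FPKM.

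Of 19 reported modifiers of spinal muscular atrophy and related genes, 3 lay above and 2 below. Pls3, the actin bundler plastin 3, had 41.5, 43.1 and 38.0 against 48.5, 66.9 and 44.3 FPKM (limma, adjusted p = 0.545). Agrn, which organises the neuromuscular junction, had 37.0, 39.0 and 48.9 against 32.3, 31.5 and 38.2 FPKM (limma, adjusted p = 0.361). Serf1, the gene next to Smn1, had 49.5, 33.6 and 38.8 against 94.3, 47.4 and 63.4 FPKM, below except that SMA library 1 exceeded control library 2. Of 17 neighbours of Smn1 on chromosome 13, 1 lay below and none above. Of 37 genes of the CCR4-NOT complex and mRNA decay, 3 lay above and 3 below, Cnot2 among them. The remaining lists had medians between -0.27 and 0.05. They were cholesterol synthesis, hypoxia and glycolysis, heat shock, interferon response, kinesins and dynein, neurotrophic factor receptors, semaphorins and plexins, and the 2 groups of Hox genes. Markers of interneurons, sensory neurons, Schwann cells, endothelium, macrophages, smooth muscle and skeletal muscle had medians between -0.13 and 0.17, and no erythroid marker was tested.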

How the data were processed

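FPKM per gene were made and deposited by the authors; Cufflinks 2.2.1, after FastQC 0.10.1 and Trim Galore 0.4.0, and the build GRCm38 are listed in the submitters' processing notes, which do not say how reads were aligned. Per the labels' protocols, Lexogen's mRNA-Seq kit was used on total RNA. The 39196 entries held 39174 gene identifiers, and FPKM of the 19 identifiers on several lines were summed. FPKM carry no counts. Low values came in steps that gave the depth, but only 29.3% to 31.6% were whole within 0.01 reads (2% by chance), so no count model was used.

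Genes with at least 1 FPKM in at least 3 of 12 libraries were tested, without small RNA genes. FPKM were scaled by median-of-ratios factors and taken as log2(scaled FPKM + 1), which understates differences of low genes. Levels in the text are unscaled, and overlap was judged on scaled values. limma 3.58.1 in R 4.3.3 (lmFit, eBayes with trend, two-sided) was fitted to 4 group means over 12 libraries, and genes were called at p under 0.05 after Benjamini-Hochberg adjustment. The script was tested on simulated data.

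Named were Smn1, the 12 higher and 12 lower genes with the lowest p, the 8 and 8 with the largest difference among genes without overlap and with a mean of at least 5 FPKM, and up to 3 members a list in each direction by p; not all are described. Other genes were picked after their values were seen. The comparison and the 40 gene lists and 13 marker lists were chosen with earlier results of these data known, and lists got no test. Same-numbered libraries with and without treatment deviated together within each genotype (correlations 0.24 to 0.60), which was not so for every pair of genotypes. Stem-loops were searched in GENCODE M21. Tables and figures used Python 3.11.15, pandas 2.3.3 and matplotlib 3.10.9. Alternatives are given in the closing section.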

Additional observations from a re-analysis of the deposited data

How the results depend on the processing

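Smn1 kept its direction and passed under every alternative run. The count of 1 called gene with R-Roscovitine was the same without scaling, with quantile normalization, with a pseudocount of 0.1, without a filter, with a filter of 5 FPKM and with the pairs of treated and untreated libraries of 1 genotype and number as a random effect. It was 4 with a common sum per library, 15 with library weights and 3 with only the 6 treated libraries. Leaving out 1 library gave 1 to 228 calls: 228 without treated SMA library 2, 5 without untreated control library 1 and 2 without untreated control library 2. Leaving out both SMA libraries numbered 2, added after the data were seen, gave 266. With the replicate number as a block, 252 genes were called, 161 higher and 91 lower, and 3 in the 6 treated libraries alone. The numbers share no stated source between genotypes, and deviations of treated libraries with the same number had correlations of 0.26, 0.05 and 0.31, though each library correlated best with its own number. Of the 228 genes called without SMA library 2, 112 were also called with the block. The untreated count of 1 was 458 with library weights, 327 with the block, 142 without both SMA libraries numbered 2, and 1 to 4 over single libraries left out, with 4 without treated SMA library 2. The interaction gave 0 calls (limma; 286 at an unadjusted p under 0.05) except 1 without a filter, and 0 with each library left out in turn or with the pairs of treated and untreated libraries as a block. Of the other genes named in the text, none was called with all libraries and the settings of the report. Of them, 42 passed with the replicate number as a block, 39 without treated SMA library 2, 39 without both SMA libraries numbered 2, 5 with library weights, and 1 each with a common sum and without untreated control library 1. Direction turned in 4 genes when a library was left out. Cacna1b ranged from -0.20 without SMA library 2 to 0.27 without SMA library 3, and was 0.08 without control library 1. Cdkn1a ranged from -0.28 without SMA library 2 to 0.056 without SMA library 1, and Col1a2 from -1.30 without control library 3 to 0.027 without control library 2. H2afy2 ranged from -0.24 without control library 2 to 0.044 without control library 1. The cause was not tested. FPKM carry no counts, so no counting error was computed for genes near 1 FPKM.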
